A study of Rattus norvegicus with 43 samples.

Results

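Gene expression was compared in the distal colon of rats fed a Western-type diet that carried butyrylated high-amylose maize starch (HAMSB, 9 arrays) and rats fed a control diet (CON, 5 arrays). These 14 arrays were chosen by their diet label from the 43 arrays of a study of 6 diets, and each array holds RNA of a different rat. All rats were Sprague Dawley, an outbred laboratory stock, and were 11 weeks old; the labels give no genetic modification and no drug. The other 29 arrays come from 4 further Western-type diets. LAMS (7 arrays) and HAMS (8 arrays) held maize starch of low and of high amylose content, and LAW (6 arrays) and HAW (8 arrays) held wheat of low and of high amylose content. The labels give only the codes; they are read here from outside knowledge of the study, which also gives HAMSB as a Western-type diet. HAMSB therefore differs from CON both in the Western-type base and in the butyrylated starch, and these components cannot be told apart in this comparison.

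Butyrate is a short-chain fatty acid that gut bacteria make from starch that escapes digestion in the small intestine. It is a fuel of colon epithelial cells and an inhibitor of histone deacetylases. Butyrylated starch carries butyrate as an ester, which is released in the large bowel. The colon wall sampled here holds the epithelium with its crypts, the connective tissue and vessels beneath it, lymphoid tissue, smooth muscle and the enteric nervous system, so a whole-tissue level reflects all of these cells.

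Values are log2 expression levels as deposited, so a difference of 1 is a 2-fold difference, and levels of different genes are not compared. One probe set per gene symbol was used, and 10828 genes reached the signal floor of 4.79 and were tested with limma, with a threshold of 0.05 for the adjusted p. The tissue markers were those of distal colon. Of 12 listed markers of colon epithelium, 10 were among the gene symbols of the array, and all 10 reached the floor. Krt8 stood at a mean of 12.4 in HAMSB and 12.5 in CON. Hoxb13, a gene of the hindmost gut, stood at 10.3 in HAMSB and 10.5 in CON. Of 5 tested markers of distal colon 0 passed between the diets. However, 4 of the 5 were lower in HAMSB, 2 with an unadjusted p under 0.05 (limma). Their median difference was -0.21, against -0.08 for all genes tested. Of 16 marker genes of the small intestine and of tissues other than gut, 5 reached the floor. Between the diets 0 of these 5 passed, but 4 were higher in HAMSB, 3 of them with an unadjusted p under 0.05, and the median difference was 0.34. Apoa1, described below, is one of them.

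The array files of HAMSB and CON were named in 3 styles, which may mark different rounds of work, although the labels do not say so. A style with the number first holds 4 HAMSB and 3 CON arrays, a style with the prefix first holds the other 5 HAMSB arrays and no CON array, and a lower-case style holds the other 2 CON arrays and no HAMSB array. Only the number-first style therefore allows a comparison of the diets within a style. Among these 14 arrays the number-first ones have animal numbers of 31 and above and all others have numbers of 1 to 30. File-name style and range of animal numbers therefore cannot be told apart here. The interquartile range over all probe sets was 2.95 to 3.19 in HAMSB arrays and 3.25 to 3.38 in CON arrays, and the groups did not overlap. The median level of the low-signal probe sets was 3.62 to 3.77 in HAMSB arrays and 3.55 to 3.60 in CON arrays, again without overlap. Within the number-first style the interquartile range was 3.12 to 3.19 in HAMSB and 3.25 to 3.29 in CON. A flatter distribution of signal thus moved with the diet. Over the tested genes alone the interquartile range was 1.91 to 2.14 in HAMSB and 2.04 to 2.20 in CON, and the groups overlapped. The mean level of 14 B cell and germinal centre genes, called the lymphoid level here, ranged from 5.73 to 8.09 in HAMSB arrays (median 6.00) and from 5.80 to 8.02 in CON arrays (median 5.98). It was above 7 in HAMSB 7, HAMSB 9 and CON 5. Fits without these arrays are given below for the count of calls and for a few results only.

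**Figure D1:**
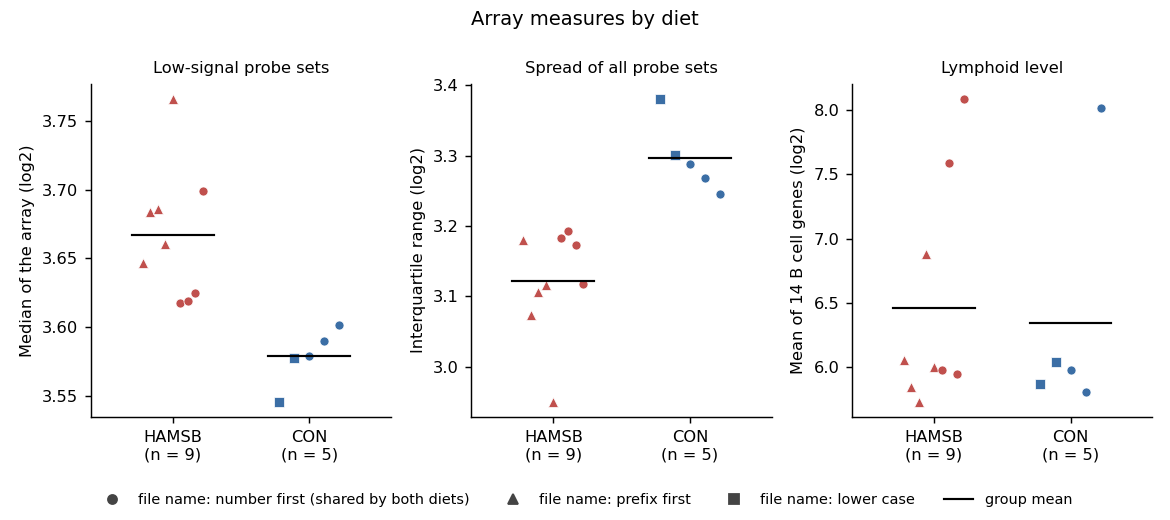
Measures of each array on the log2 scale for HAMSB (9 arrays) and CON (5 arrays): the median of the low-signal probe sets, the interquartile range over all probe sets and the mean of 14 B cell genes. Each point is an array, its shape gives the style of the file name and the line is the group mean; the first and second measures do not overlap between the diets, while the third is high in 2 HAMSB arrays and 1 CON array.

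Relative to the control diet, 91 genes changed in HAMSB (limma, adjusted p under 0.05), which is 0.84% of the genes tested. Of these, 39 rose (0.36%) and 52 fell (0.48%). The changes were small. Among the called genes the absolute difference ran from 0.27 to 0.95 on the log2 scale, with a median of 0.49 for the genes that rose and -0.49 for those that fell, and the smallest adjusted p was 0.0218. Without adjustment, 712 genes were higher (6.58%) and 1515 lower (14%) at p under 0.05. The 9 HAMSB and 5 CON arrays did not overlap for 198 genes, 1.83% of those tested, 68 with HAMSB above (0.628%) and 130 with HAMSB below (1.2%), and 43 of the 91 called genes were among them. The median difference of all tested genes was -0.08. Centring each array on its median adds 0.11 to every gene's difference and gave 85 calls, 71 higher and 14 lower, so the balance of rises and falls depends on the scaling. Of the called genes named below, all that rose passed after centring, and of those that fell Olfml1, St3gal2, Pros1, Mdm2, Spin1 and Abcc9 did, while the others did not.

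These calls rest on few arrays, and none held when the file-name style was taken into account. With the style as a block no gene passed in limma, although 906 genes had an unadjusted p under 0.05, and no gene passed within the number-first style alone, where 709 did. With the interquartile range over the tested genes as a covariate no gene passed either, and 1206 had an unadjusted p under 0.05. All 91 genes kept their direction in each of these 3 fits, which reuse arrays that chose these genes and are no independent check. Within the number-first style their median difference was 0.28 for the genes that rose and -0.30 for those that fell, and 52 of the 91 had an unadjusted p under 0.05, but these 7 arrays are among the 14 that chose the genes and are no independent check. Leaving out CON 1, CON 4 or HAMSB 3 ended every call, and leaving out HAMSB 6 gave 184 calls. Each of the 91 genes lost its call in at least 3 of the 14 fits that leave out 1 array.

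**Figure D2:**
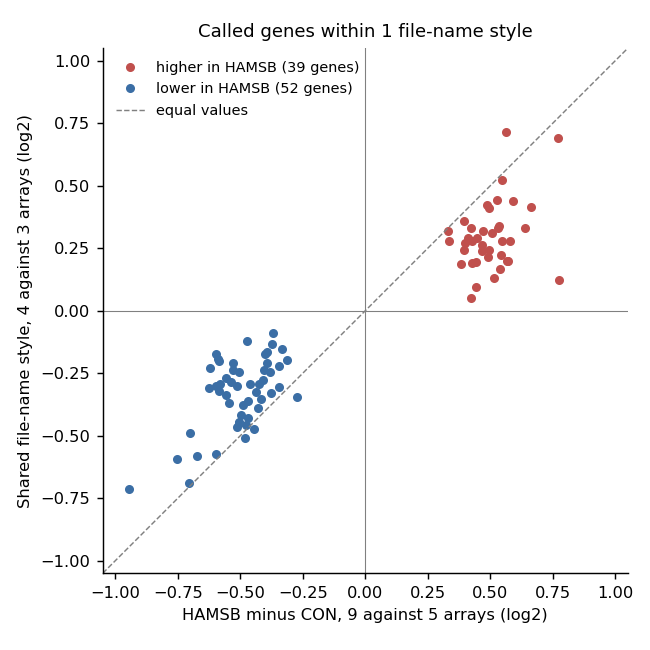
Difference between HAMSB and CON (log2) for the 39 genes that rose (red) and the 52 that fell (blue). The x axis uses 9 HAMSB and 5 CON arrays, the y axis only the 4 HAMSB and 3 CON arrays of the number-first style, which are part of the 14; all 91 points keep their side of 0 and 87 of them are nearer to 0 on the y axis than on the x axis.

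Genes of the connective tissue were among the clearest falls. Lox, lysyl oxidase, which cross-links collagen and elastin, had levels of 5.59 to 5.94 (median 5.92) in HAMSB arrays, against 6.55, 6.23, 6.46, 6.31 and 6.02 in CON 1 to 5. Every HAMSB array was below every CON array. The difference was -0.48 ± 0.10 (SE; adjusted p = 0.0337, limma), a 1.39-fold lower level, and -0.46 within the number-first style. Pdgfra, a receptor of platelet-derived growth factor carried by mesenchymal cells, measured 8.06 to 8.66 (median 8.36) in HAMSB and 9.05, 9.31, 8.99, 8.66 and 8.63 in CON, so that HAMSB 6 reached the level of the lowest CON arrays. It fell by 0.59 on the log2 scale (adjusted p = 0.0498, limma), with -0.32 within the number-first style. In this bulk tissue, fewer cells of a type and less RNA per cell cannot be told apart.

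Both genes belong to a list of 27 tested fibroblast and matrix genes. Lox and Pdgfra were the members that fell, 2 of 27, and none rose, where 0.48% of all genes fell and 0.36% rose. The differences of all 27 members lay below 0, from -0.59 to -0.07, where 63.5% of all genes tested did. The median of the list was -0.33, against -0.08 for all genes, and -0.29 within the number-first style, where the median of all genes was -0.04. After centring, 26 of the 27 remained below 0, against 43.1% of all genes. Pdgfrb and Vim are members that did not pass the test. Pdgfrb, the related receptor, differed by -0.34 (adjusted p = 0.0870), with 7.28 to 7.57 in HAMSB and 7.48 to 7.91 in CON. Vim, vimentin, a filament protein of mesenchymal cells, differed by -0.32 (adjusted p = 0.0895). The mean of the list per array was 8.62 to 9.01 in HAMSB and 8.94 to 9.37 in CON, so the diets overlapped narrowly. Leaving out HAMSB 7, HAMSB 9 and CON 5 gave a list median of -0.38. After centring, Lox and Pdgfra no longer passed (adjusted p = 0.0506 and 0.0772, limma).

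Several called genes outside that list also encode parts of the matrix or of mesenchymal and vascular cells; they were picked from the called genes after their values were seen and form no tested group. Olfml1, which encodes a secreted protein with an olfactomedin domain, had 5.35 to 6.16 (median 6.07) in HAMSB and 6.88, 6.62, 6.55, 6.71 and 6.36 in CON, with no overlap. It fell by 0.71 on the log2 scale (adjusted p = 0.0218, limma). Abcc9, a subunit of potassium channels of smooth muscle and pericytes, had 6.78 to 7.27 (median 7.07) in HAMSB and 7.89, 7.82, 7.39, 7.45 and 7.43 in CON. Its highest HAMSB array lay below its lowest CON array, and the difference was -0.54 ± 0.11 (adjusted p = 0.0218, limma). Lamc1, the laminin gamma 1 chain of basement membranes, ranged from 8.39 to 8.60 in HAMSB and from 8.69 to 9.28 in CON and fell by 0.49. Tgm2, transglutaminase 2, an enzyme that cross-links proteins, ranged from 8.52 to 8.88 in HAMSB and from 8.93 to 9.26 in CON and fell by 0.38. Sulf1, which removes sulphate groups from heparan sulphate, and Pamr1, a secreted protein with a peptidase-like domain, fell by 0.51 and 0.42. Gulp1, an adaptor for the engulfment of dying cells, measured 4.50 to 5.10 (median 4.90) in HAMSB and 5.82, 5.37, 5.38, 5.70 and 5.32 in CON, and fell by 0.67 (adjusted p = 0.0447, limma). Pros1 encodes protein S, an anticoagulant of plasma that endothelial and other cells also make; it had 7.04 to 7.62 (median 7.35) in HAMSB and 8.35, 8.05, 7.92, 7.91 and 7.73 in CON and fell by 0.62. Within the number-first style the differences were -0.69 for Olfml1, -0.58 for Gulp1, -0.38 for Lamc1, -0.37 for Abcc9, -0.35 for Pamr1 and -0.33 for Tgm2. They were -0.31 for Pros1 and -0.30 for Sulf1.

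Other lists of the muscle and nerve layers held no gene past the threshold. For smooth muscle contractile genes 0 of 26 passed, with a median of -0.19 and 25 members below 0, which centring brought to 17. For enteric neuron and glia genes 0 of 29 passed, with a median of -0.22, and -0.38 within the number-first style. In this list 22 members lay below 0 and 7 above. At an unadjusted p under 0.05 (limma), 9 were lower and 3 higher. Centring left 19 of the 29 below 0, with a median of -0.11. Uchl1, a ubiquitin hydrolase abundant in neurons, ranged from 6.30 to 7.88 in HAMSB and from 7.50 to 8.06 in CON (-0.51, adjusted p = 0.132). HAMSB 9 held its lowest level. Ret, the receptor through which glial cell line-derived factor maintains enteric neurons, ranged from 6.00 to 6.72 in HAMSB and from 6.67 to 7.06 in CON (-0.43, adjusted p = 0.0712). Chrm3, the muscarinic receptor that drives smooth muscle contraction, differed by -0.46 (adjusted p = 0.109). For endothelial genes 0 of 22 passed, and Prox1, a transcription factor of lymphatic endothelium that enteroendocrine cells also use, differed by -0.42 (adjusted p = 0.0608).

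**Figure D3:**
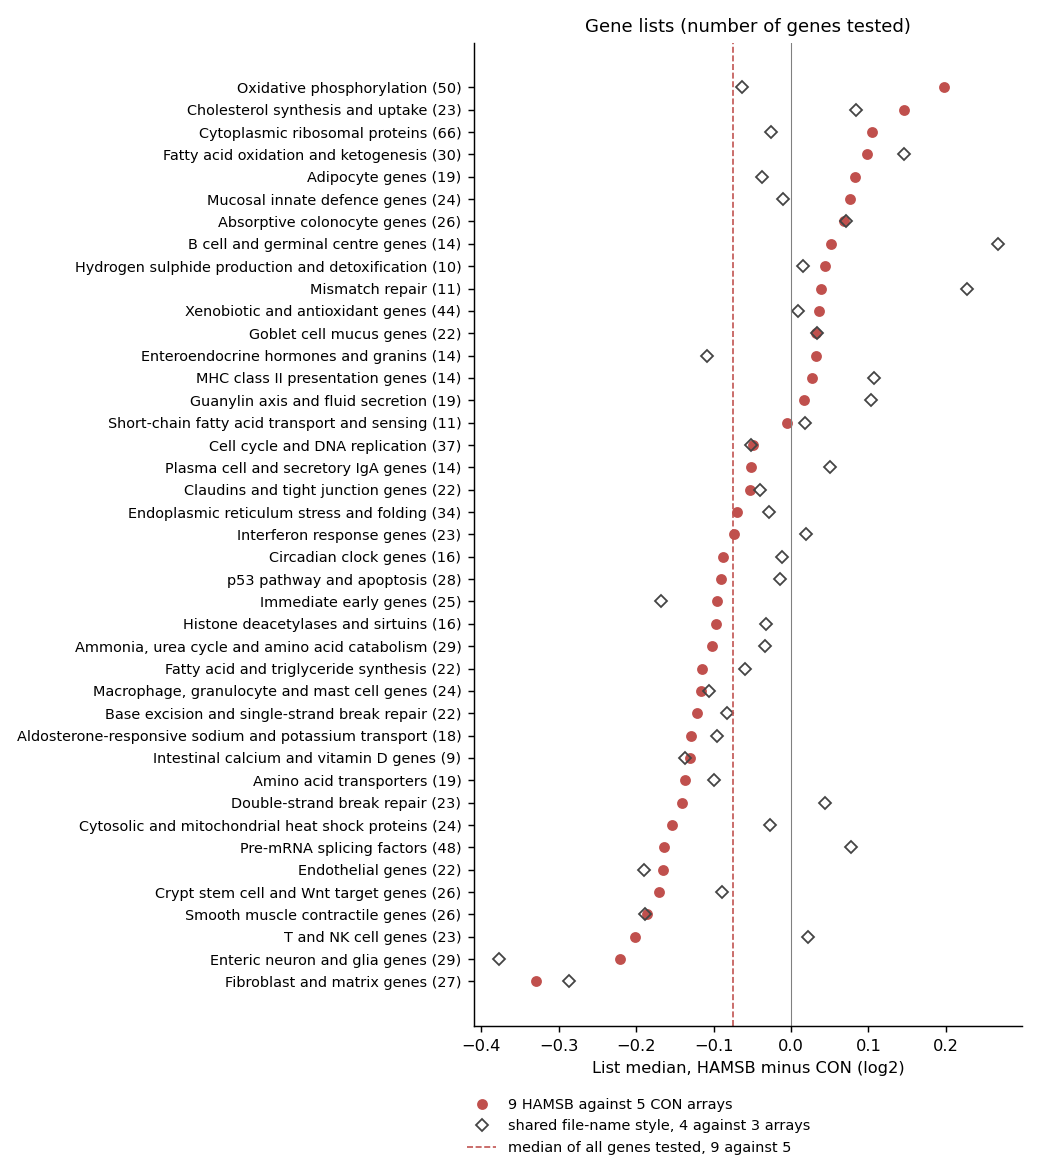
Median difference between HAMSB and CON (log2) over the tested genes of each of 41 gene lists, number tested in brackets. Filled points use all 14 arrays and open diamonds the 4 HAMSB and 3 CON arrays of the number-first style; the dashed line is the median of all genes tested, and the fibroblast and enteric neuron lists lie farthest below it in both.

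The remaining large falls came from varied functions. Vsig1, a junctional adhesion protein known from gastric epithelium, had the largest fall among the called genes. It measured 8.59 to 9.86 (median 8.93) in HAMSB and 10.36, 10.08, 10.01, 10.15 and 9.23 in CON. HAMSB 8 and CON 5 stood out from their groups, so that the ranges overlapped, and the difference was -0.95 ± 0.24 (adjusted p = 0.0488, limma), or -0.71 within the number-first style. Naip6, a member of the family of inflammasome sensors for bacterial proteins, had 7.08 to 8.23 (median 7.62) in HAMSB and 8.60, 8.51, 8.24, 8.25 and 8.29 in CON. No HAMSB array reached the CON range, and the gene fell by 0.75 (adjusted p = 0.0447, limma), with -0.59 within the number-first style. The Naip genes are near-identical copies, so the probe set may read more than one of them. St3gal2, a sialyltransferase, measured 8.17 to 8.67 (median 8.43) in HAMSB and 9.15, 9.66, 8.85, 9.23 and 8.81 in CON, without overlap, and fell by 0.70 (adjusted p = 0.0337, limma), with -0.49 within the number-first style. Spin1, a reader of histone methylation, ranged from 8.63 to 9.06 in HAMSB and from 9.11 to 9.43 in CON and fell by 0.43. Chml, a Rab escort protein, Kbtbd2, an adaptor of a cullin ubiquitin ligase, Hdgfl3, of the hepatoma-derived growth factor family, and Pramef8 fell by 0.60 to 0.62. Within the number-first style Chml and Kbtbd2 differed by -0.23 and -0.17, Hdgfl3 by -0.30, Spin1 by -0.29 and Pramef8 by -0.57.

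Among the genes that rose, the highest differences after the histone gene Hist1h2af came from Cyp2d5 and Apoc3. Cyp2d5, a cytochrome P450 of drug metabolism, had 5.88 to 6.56 (median 6.26) in HAMSB and 5.45, 5.57, 5.66, 5.34 and 5.28 in CON. All HAMSB arrays were above all CON arrays, the difference was 0.77 ± 0.17 (adjusted p = 0.0347, limma), a 1.70-fold higher level, and it was 0.69 within the number-first style. Rat Cyp2d genes are near-identical copies, so the probe set may read others of them. Cyp2d5 was the only 1 of 44 tested xenobiotic and antioxidant genes to pass, where 0.84% of all genes passed. Apoc3, an apolipoprotein that slows the clearance of triglyceride-rich particles, had 5.07 to 6.21 (median 5.57) in HAMSB and 4.84, 5.13, 5.02, 4.96 and 4.79 in CON. HAMSB 8 lay below CON 2, and the difference was 0.66 ± 0.13 (adjusted p = 0.0218, limma), or 0.42 within the number-first style. Nupr2, a small chromatin protein of the stress response, ranged from 5.70 to 6.12 in HAMSB and from 5.30 to 5.60 in CON and rose by 0.49 (adjusted p = 0.0218, limma), with 0.41 within that style. Crym, mu-crystallin, which binds thyroid hormone, had 6.52 to 7.21 (median 6.70) in HAMSB and 6.28, 6.12, 6.11, 6.08 and 6.19 in CON. No CON array reached the HAMSB range, and the difference was 0.56, or 0.71 within the number-first style, in which HAMSB 7 was the highest array.

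The other rises named here came from varied functions. Hist1h2af, a histone H2A gene with near-identical copies, had 7.44 to 8.46 (median 8.00) in HAMSB and 6.82, 6.49, 7.37, 7.57 and 7.57 in CON. Its difference of 0.78 came to only 0.12 within the number-first style. H2bc1, a histone H2B gene of the testis, rose by 0.57, and it has near-identical copies too. Otp and Hmx1, homeobox genes of the nervous system, rose by 0.58 and 0.57, and Grm4, a metabotropic glutamate receptor, rose by 0.55. Ttc36, Tigd3, Armc2 and Slc35g3 rose by 0.54 to 0.64. Within the number-first style the difference was 0.52 for Grm4 and 0.44 for Tigd3, 0.33 for Ttc36, 0.28 for Otp and 0.28 for Armc2, and 0.22 for Slc35g3, 0.20 for H2bc1 and 0.20 for Hmx1. Mbl2, mannose-binding lectin, and Proc, protein C, both plasma proteins of the liver, rose by 0.53 and 0.49 (0.44 and 0.42 within the number-first style). Inhbb, the activin beta B subunit, and Sox12, a transcription factor, rose by 0.47 and 0.49 (0.24 and 0.24 within that style). Array signal does not rank the expression of different genes. Of the 39 genes that rose, 26 had a median signal below 6.45, the floor of a stricter filter, as did 9 of the 52 that fell and 3631 of the 10828 genes tested. The low-signal level of the arrays themselves was higher in HAMSB, as given above, and the part of that shift in these rises was not tested.

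**Figure D4:**
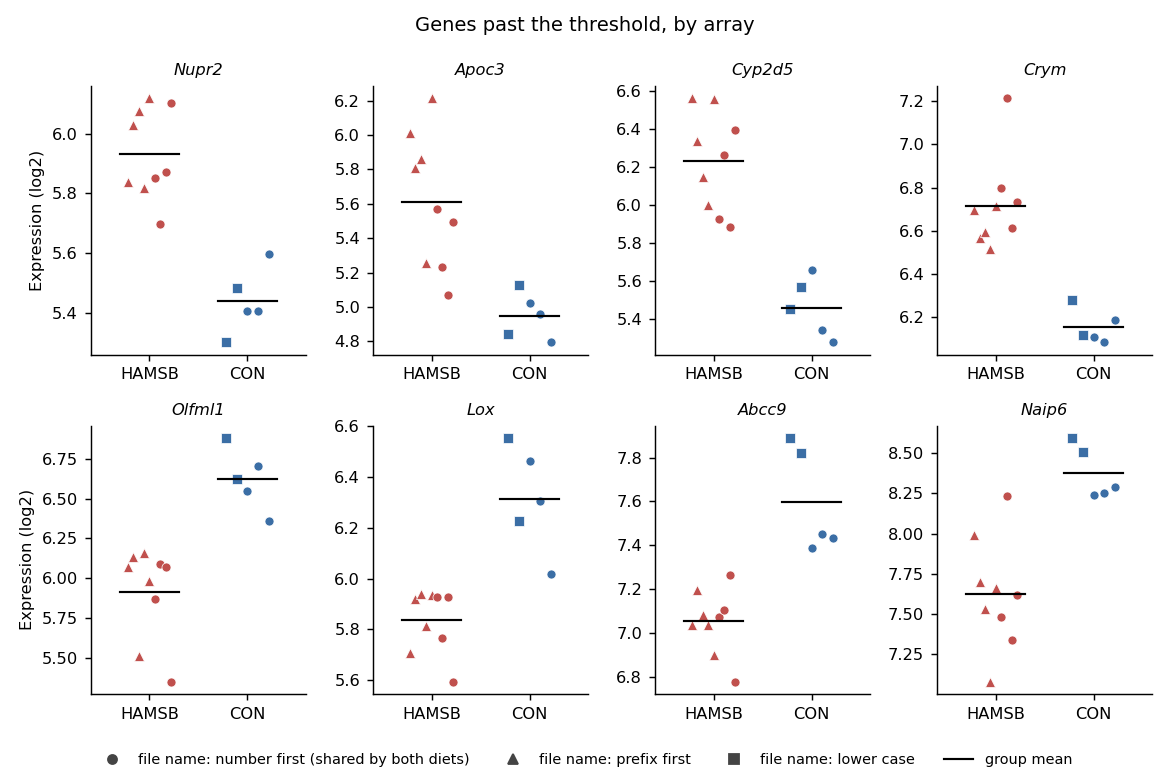
Expression (log2) of 4 genes that rose and 4 that fell, by array, for HAMSB (red, 9 arrays) and CON (blue, 5 arrays); the line is the group mean and the shape gives the file-name style. HAMSB and CON arrays do not overlap except for Apoc3, where HAMSB 8 lies below CON 2.

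Genes that handle short-chain fatty acids did not change past the threshold. Of 11 tested transporters, receptors and activating enzymes 0 passed, with a median of -0.01. Slc16a1, the monocarboxylate transporter of the colonocyte, ranged from 9.93 to 10.47 in HAMSB and from 9.88 to 10.56 in CON, a difference of 0.04 with a 95% interval of -0.29 to 0.37. Slc5a8, the sodium-coupled butyrate transporter, differed by -0.03 (-0.48 to 0.41). Ffar3, a receptor of short-chain fatty acids, ranged from 5.82 to 6.90 in HAMSB and from 5.40 to 6.08 in CON. Its difference was 0.47 (adjusted p = 0.109, limma) and 0.03 within the number-first style. Of 30 genes of fatty acid oxidation and ketogenesis 0 passed, with a median of 0.10. Hadha, a subunit of the mitochondrial trifunctional protein of beta-oxidation, differed by 0.35 (adjusted p = 0.127) and by 0.35 within the number-first style; after centring its adjusted p was 0.0498. Of 16 deacetylase genes, the enzymes that butyrate inhibits, 0 passed.

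Some genes of the mature epithelium had wide differences that missed the threshold, while their lists were split in direction. Guca2b, uroguanylin, a peptide that drives fluid secretion through guanylate cyclase C, had 8.76 to 9.72 (median 9.19) in HAMSB and 8.50, 8.88, 8.59, 8.31 and 8.70 in CON. The difference was 0.57 with a 95% interval of 0.11 to 1.03 (adjusted p = 0.157, limma). Aqp8, a water channel of surface colonocytes, ranged from 8.91 to 10.10 in HAMSB and from 7.93 to 9.30 in CON (0.86, adjusted p = 0.201). Car1, carbonic anhydrase 1, ranged from 9.50 to 11.08 in HAMSB and from 8.89 to 9.89 in CON (1.00, adjusted p = 0.171). Zg16, a lectin of goblet cell mucus, spread over 8.34 to 11.11 in HAMSB and 7.76 to 10.51 in CON, and its difference of 1.08 had an adjusted p of 0.195. Among HAMSB arrays Aqp8, Car1 and Zg16 each varied by more than 1 log2 unit. Of 26 absorptive colonocyte genes, 22 goblet cell genes and 22 tight junction genes, 0 passed in each list. The list medians were 0.07, 0.03 and -0.05, against -0.08 for all genes. Of the 26 absorptive genes 14 were higher and 12 lower in HAMSB. Slc20a1, among the 12, ranged from 8.24 to 9.30 in HAMSB and from 9.37 to 10.38 in CON, without overlap (-0.75, adjusted p = 0.0626, limma). Slc12a2, the sodium-potassium-chloride cotransporter of crypt cells, differed by -0.54 (adjusted p = 0.113).

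The other apolipoprotein and lipid genes named here did not pass. Apoa1, the main protein of high-density lipoprotein, had the widest difference, 1.80 (95% interval 0.72 to 2.87, adjusted p = 0.0731, limma). It spread over 6.56 to 9.81 in HAMSB and 5.87 to 7.31 in CON, with HAMSB 8 inside the CON range. Fads2, the delta-6 desaturase of polyunsaturated fatty acids, ranged from 8.54 to 9.06 in HAMSB and from 9.01 to 9.53 in CON and just missed the threshold (-0.43, adjusted p = 0.0523). Mlxipl, the carbohydrate-responsive transcription factor, ranged from 7.22 to 8.27 in HAMSB and from 6.70 to 7.13 in CON, without overlap (0.65, adjusted p = 0.104). Aldh1a1, a retinaldehyde dehydrogenase, differed by -1.04 (adjusted p = 0.0836). Of 23 cholesterol and 22 fatty acid synthesis genes 0 passed. Abcb1a, the P-glycoprotein efflux pump, had 4.99 to 6.19 (median 5.28) in HAMSB and 5.76, 7.06, 6.47, 5.85 and 6.24 in CON (-0.91, adjusted p = 0.0758); HAMSB 9 reached into the CON range.

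In the DNA repair and p53 lists, Tdg and Mdm2 fell. Mdm2, the ubiquitin ligase that degrades p53, had 7.12 to 7.76 (median 7.29) in HAMSB and 8.03, 8.10, 7.87, 7.93 and 7.70 in CON. HAMSB 9 lay just above CON 5, and the difference was -0.53 ± 0.12 (adjusted p = 0.0347, limma), against -0.21 within the number-first style. Tdg, a DNA glycosylase of base excision repair and demethylation, had 6.87 to 7.54 (median 7.35) in HAMSB and 8.08, 7.93, 7.46, 7.79 and 7.59 in CON and fell by 0.47 (adjusted p = 0.0498, limma), but differed by only -0.12 within the number-first style. Mdm2 was the 1 gene of 28 in the p53 and apoptosis list to pass, and Tdg the 1 gene of 22 in that of base excision repair. Of all genes 0.84% passed. Rev3l, the catalytic subunit of DNA polymerase zeta, which is in neither list, fell by 0.59, with -0.20 within the number-first style. Ung, the uracil glycosylase of base excision repair, was 0.35 higher without passing (adjusted p = 0.110), and 0.07 within the number-first style. Msh3 and Mlh3, of mismatch repair, differed by -0.36 and -0.45 (adjusted p = 0.134 and 0.113), but by 0.03 and -0.01 within the number-first style. No gene passed among 11 of mismatch repair, 23 of double-strand break repair and 37 of the cell cycle.

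Lists of the basic cell machinery had medians that differed between all 14 arrays and the arrays of the number-first style. For oxidative phosphorylation 0 of 50 genes passed. The list median was 0.20 over all 14 arrays and -0.06 within the number-first style. Cox7b, a subunit of cytochrome c oxidase, showed this at a single gene, with a difference of 0.59 (adjusted p = 0.177) over all arrays and 0.04 within the style. For ribosomal proteins 0 of 66 passed, with medians of 0.10 and -0.03. For splicing factors 0 of 48 passed, with medians of -0.16 and 0.08, and for heat shock proteins 0 of 24, with medians of -0.15 and -0.03. Hspa8, the constitutive cytosolic Hsc70 chaperone, ranged from 11.73 to 12.68 in HAMSB and from 12.64 to 12.83 in CON (-0.42, adjusted p = 0.0523), and differed by -0.08 within the style. Asl, argininosuccinate lyase of the urea cycle, was the 1 gene of 29 in the ammonia and amino acid list to pass, against 0.84% of all genes. It had 6.36 to 6.91 (median 6.61) in HAMSB and 7.00, 6.98, 7.08, 6.95 and 6.87 in CON and fell by 0.33 (adjusted p = 0.0447, limma), with -0.15 within the style. Of 19 amino acid transporters 0 passed; the mean of that list was 7.43 to 7.56 in HAMSB arrays and 7.61 to 7.73 in CON arrays, without overlap. Slc6a14, an uptake carrier for neutral and basic amino acids, had 6.68 to 8.40 (median 7.62) in HAMSB and 9.16, 8.57, 8.00, 8.23 and 8.00 in CON (-0.86, adjusted p = 0.0966). Within the number-first style its difference was 0.03.

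The immune lists held no gene past the threshold. Of 14 B cell, 23 T and NK cell, 14 plasma cell and IgA, 14 MHC class II, 24 myeloid, 24 innate defence and 23 interferon genes, 0 passed in each list. Jchain, the joining chain of secreted IgA, differed by 0.29 (-0.28 to 0.87), and Pigr, the receptor that carries IgA across the epithelium, by -0.13 (-0.43 to 0.17). Cd86, a costimulator of antigen-presenting cells, ranged from 6.70 to 7.31 in HAMSB and from 7.44 to 7.86 in CON, without overlap (-0.53, adjusted p = 0.0673). Leaving out HAMSB 7, HAMSB 9 and CON 5, an alternative chosen after the data were seen, gave 206 calls in all and put Cd86 (-0.53 with all arrays, -0.64 without them) past the threshold with an adjusted p of 0.0458.

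A second test set HAMSB against the mean of the other 4 Western-type diets, a difference that no control array enters, although the CON arrays share in the estimate of the spread. It called 2487 genes, 23% of those tested, 1331 higher (12.3%) and 1156 lower (10.7%). Of the 91 genes called against CON, 50 were also called here, 54.9% of the first set and 2.01% of the second, and all 50 had the same direction. The 2 comparisons share the HAMSB arrays. The number-first style holds no array of the other Western-type diets, and the 5 prefix-first HAMSB arrays share their style with 8 HAMS, 3 HAW, 3 LAMS and 1 LAW array. With the style as a block 1036 genes passed, and 2338 with the Western-type arrays alone. In the block fit CON arrays do enter the difference, because the number-first HAMSB arrays share their style only with CON arrays.

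For several genes the HAMSB mean lay outside the means of all 5 other diets. Guca2b averaged 9.17 ± 0.31 in HAMSB (SD, n = 9), 8.01 in LAMS, 8.18 in HAMS, 8.08 in LAW, 7.98 in HAW and 8.60 ± 0.22 in CON (n = 5). It was 1.11 ± 0.16 higher in HAMSB than in the other Western-type diets (adjusted p = 0.000140, limma), with 1.06 under the style block. Cyp2d5 averaged 6.23 in HAMSB, between 5.39 and 5.70 in the other Western-type diets and 5.46 in CON, and differed from the other Western-type diets by 0.71 (adjusted p = 0.000326). Crym (0.49) and Sox12 (0.44) were higher in that test as well. Naip6 averaged 7.63 in HAMSB, between 8.14 and 8.47 in the other Western-type diets and 8.38 in CON. It differed from the other Western-type diets by -0.72 (adjusted p = 0.000506), and by -0.56 under the style block. Slc6a14 averaged 7.53 in HAMSB, between 8.31 and 9.10 in the other Western-type diets and 8.39 in CON, and Abcb1a averaged 5.37 in HAMSB, between 5.81 and 6.56 in the other Western-type diets and 6.28 in CON. Their differences from the other Western-type diets were -1.29 (adjusted p = 0.000187) and -0.99 (adjusted p = 0.000651). Tdg (-0.47) and Kbtbd2 (-0.61) were lower in HAMSB in the same test.

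The connective tissue genes gave smaller differences in this test. Lox averaged 5.84 ± 0.13 in HAMSB, 5.90 in LAMS, 5.85 in HAMS, 5.86 in LAW, 5.94 in HAW and 6.31 ± 0.21 in CON. HAMSB differed from the other Western-type diets by -0.05, with a 95% interval of -0.19 to 0.09, and all 5 Western-type means lay below that of CON. Olfml1 (-0.17, interval -0.37 to 0.02), Gulp1 (-0.06, interval -0.29 to 0.16) and Pdgfra (-0.19, interval -0.40 to 0.02) did not pass against the other Western-type diets either. The median of the 27 fibroblast and matrix genes relative to CON was -0.33 in HAMSB, -0.14 in LAMS, -0.62 in HAMS, -0.20 in LAW and -0.19 in HAW. These 5 values share the 5 CON arrays and are given side by side only. In HAMSB against the other Western-type diets the list median was -0.03, with 1 of 27 genes higher and 0 lower. Of all genes 12.3% were higher and 10.7% lower in that test. Apoa1 averaged 8.35 in HAMSB, between 7.30 and 7.72 in the other Western-type diets and 6.55 in CON, and its difference from the other Western-type diets missed the threshold (0.83, adjusted p = 0.0914). Apoc3 was higher in HAMSB than in the other Western-type diets (0.34, adjusted p = 0.00727). Its mean was 5.61 in HAMSB, 5.45 in HAMS and 4.95 in CON, and HAMS differed from CON by 0.50 (adjusted p = 0.00632, limma). Olfml1 (-0.81), Abcc9 (-0.76) and Inhbb (0.63) also passed in HAMS against CON, with larger differences than in HAMSB. By contrast, Cyp2d5 (-0.07), Crym (-0.07), Naip6 (-0.24) and Tdg (-0.12) did not pass in HAMS against CON.

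**Figure D5:**
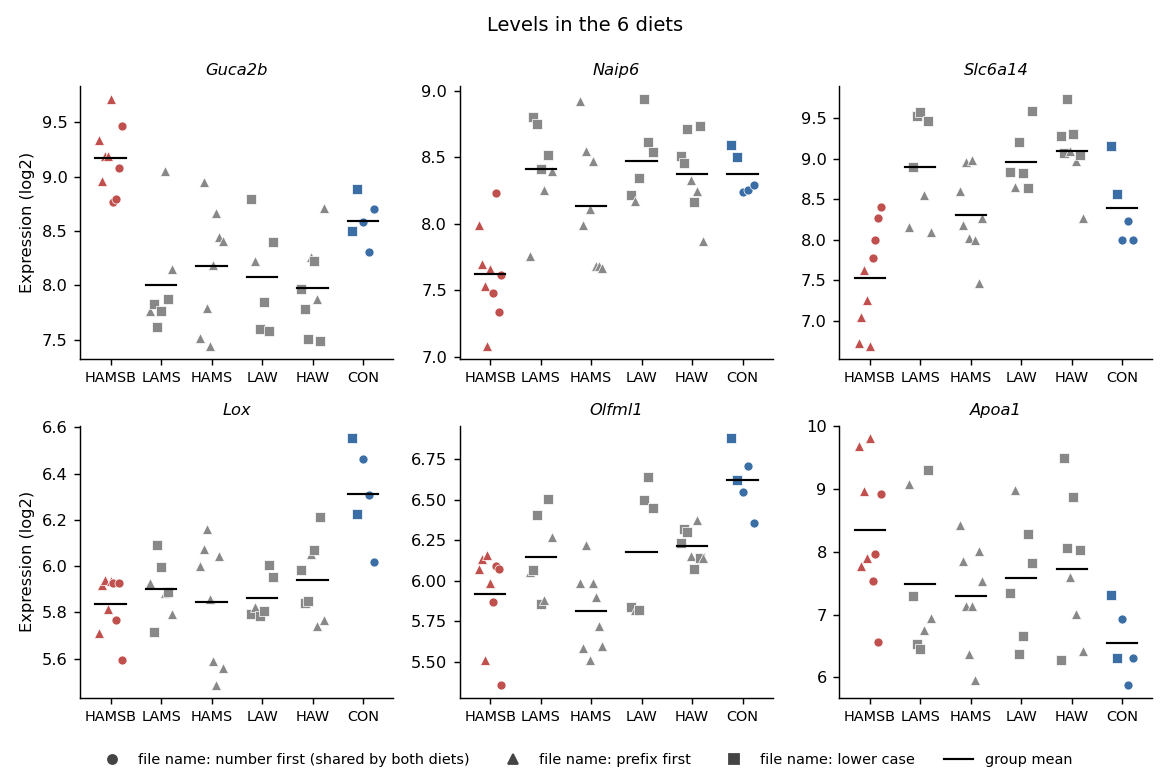
Expression (log2) of 6 genes in HAMSB (red, n = 9), the other Western-type diets (grey: LAMS 7, HAMS 8, LAW 6 and HAW 8 arrays) and CON (blue, n = 5); the line is the diet mean and the shape the file-name style. HAMSB holds the highest mean for Guca2b and Apoa1 and the lowest for Naip6 and Slc6a14, while CON lies highest for Lox and Olfml1 and lowest for Apoa1.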

How the data were processed

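The deposited table holds log2 values for 29214 probe sets on 43 arrays, deposited by the authors after RMA (named in the submitters' processing notes); RMA corrects background, equalises the distribution of arrays and summarises probes, and its version was not given. Labelled RNA came from 100 ng of total RNA per rat. Of the probe sets, 15310 had 1 symbol, 323 several and 13581 none; symbols came from the platform's annotation, which can be old. Per symbol the probe set with the highest mean over all arrays was kept (14506), and those with a median at or above the 25th percentile, 4.79, were tested (10828). A model with 6 diet means was fitted with limma 3.58.1 in R 4.3.3 (lmFit, eBayes), two-sided, adjusted by Benjamini and Hochberg; intervals are limma's 95% intervals, which reach a median of 0.27 to either side of the difference. On simulated data for this comparison, 57 of 100 genes changed by 0.5 log2 units and 96 of 100 changed by 1 were recovered. The simulated noise was independent between genes and arrays and held no shift by file-name style, array spread or lymphoid level. Recovery in the real arrays may therefore differ. Figures used matplotlib 3.10.9 in Python 3.11.15. Named were the 12 largest rises and falls among called genes, up to 4 members per list by smallest p, and fixed genes, 1 of which is not reported here; Nupr2, Spin1, Abcc9, Tgm2, Mbl2, Proc, Sulf1, Lamc1, Pamr1, Sox12 and Inhbb, called genes outside this rule, were added after their values were seen, and not all list members are named. The 44 lists held 1245 genes, 996 of them tested. Members, lists and tests were chosen with earlier results of these data known. Same-numbered HAMSB and CON arrays did not deviate together (r from -0.09 to 0.12), and the numbers were not treated as pairs. These few correlations cannot exclude a pairing. Arrays carry no read depth; their number limits the precision. All arrays differed from each other (r from 0.964 to 0.991).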

Additional observations from a re-analysis of the deposited data

Results flagged for a closer look

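For the 95 genes and the array measures, 198 groups were checked for an array far from the others of its diet, by Dixon's test at 95%. Such arrays were found in 10 groups, about the 1 in 20 that chance gives. HAMSB 5 was the highest HAMSB array for Armc2 (6.60, the next 6.09) and Proc (5.95, the next 5.64), the lowest for Polb, DNA polymerase beta (6.58, the next 7.24), and the lowest in the interquartile range over all probe sets (2.95, the next 3.07). HAMSB 7 was the highest for Crym (7.21, the next 6.80). HAMSB 9 was the lowest for Cspg5, a proteoglycan of neural cells (4.43, the next 4.92), and HAMSB 4 the lowest for Prdm1, a transcription factor of plasma cells (4.29, the next 4.73). Among CON arrays, CON 1 was the highest for the ribosomal protein gene Rpl38 (10.7, the next 10.4) and for Cd86 (7.86, the next 7.56), and CON 5 had the highest lymphoid level (8.02, the next 6.04).

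Probe sets without exactly 1 gene symbol were outside the comparisons above. Of 7365 that reached the signal floor, 729 passed the threshold in HAMSB minus CON with limma, 603 higher and 126 lower, and 107 passed with the file-name style as a block. Among the genes with 1 symbol, 91 of 10828 passed (0.84%), 39 higher and 52 lower, and 0 with that block. Most calls of this comparison therefore lay outside the genes reported above. The part of these probe sets in the array-wide shift was not tested.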

How the results depend on the processing

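Every one of the 95 genes named or listed for naming kept the direction of its difference between HAMSB and CON in every alternative in which either fit called it. The main fit called 40 of the 95. Changes of sign where neither fit called the gene were not counted. Slc6a14 and Msh3, for example, changed sign within the number-first style. The alternatives reuse arrays of the main fit, so a kept direction is no independent check. The count of called genes, 91, varied widely. It was 0 with the replicate numbers as a block, with the file-name style as a block, with the interquartile range over the tested genes as a covariate, within the number-first style alone and, in an alternative chosen after seeing the data, within that style with the spread taken from all arrays; at an unadjusted p under 0.05 these limma fits held 1851, 906, 1206, 709 and 552 genes. The replicate numbers share no animal, and losing calls under that block is no measure of effect size. The count was 5 with the style block together with a lymphoid level covariate, 22 with no filter, 28 with the stricter filter and also 28 with the range of animal numbers as a block, and 60 with a trended and robust prior. It was 153 with HAMSB and CON arrays alone, 614 with the lymphoid level as a covariate, 1089 with array weights and 3271 among animal numbers 1 to 30, where file-name style and diet cannot be told apart. Leaving out the 3 arrays of high lymphoid level, chosen after seeing the data, gave 206, which held 77 of the 91. In that fit 35 of the 40 called genes among the 95 kept their call, 5 lost it and 9 other genes gained one. Leaving out 1 array gave 0 (without CON 1, CON 4 or HAMSB 3) to 184 (without HAMSB 6). Against the other Western-type diets, 2487 calls became 4582 with array weights, 1036 with the style as a block, 1356 with the style block together with a lymphoid level covariate, and 1474 (without HAMSB 5) to 3214 (without HAMSB 9) with 1 array left out; 1634 passed without HAMSB 2. The replicate block gave 2776. The cause of these shifts was not tested. The precision is limited by 5 CON arrays, of which 3 share a file-name style with HAMSB arrays.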

Other observations

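Against the other Western-type diets, genes of the mitochondrial respiratory chain were higher in HAMSB. Of 50 tested genes of oxidative phosphorylation, 30 rose and none fell (limma, adjusted p under 0.05), with a list median of 0.35, against 1331 of 10828 genes that rose and a median of 0.03 among all genes. Cox7b rose by 0.86 (adjusted p = 0.000943). With the file-name style as a block 9 of 50 rose and none fell, with a median of 0.19, where 681 of all 10828 genes rose, 355 fell and the median was 0.04, and the list median against CON within the number-first style was -0.06. Of 66 ribosomal protein genes 19 rose and 2 fell, where 12.3% of all genes rose and 10.7% fell. With the style as a block 7 rose and 3 fell, shares of 10.6% and 4.55%, against 6.29% and 3.28% of all genes under that block. Splicing factors went the other way. Of 48, 18 fell and 1 rose, with a median of -0.20, where 10.7% of all genes fell and 12.3% rose. With the style as a block 9 fell (18.8%) and none rose, where 3.28% of all genes fell and 6.29% rose. Of 24 heat shock genes 9 fell and 3 rose, where 10.7% of all genes fell and 12.3% rose. With the style as a block 4 fell and 1 rose, shares of 16.7% and 4.17%, against 3.28% and 6.29% of all genes. Among the 9 that fell without the block was Hspa8, which fell by 0.49 (adjusted p = 0.000251, limma). Nr3c1, the glucocorticoid receptor, fell by 0.62 in the same test (adjusted p = 0.000509, limma), while its difference from CON was -0.45 (adjusted p = 0.123).

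Of 14 enteroendocrine genes 4 rose and none fell against the other Western-type diets, where 12.3% of all genes rose and 10.7% fell. With the style as a block 3 of the 14 rose (21.4%) and none fell, where 6.29% of all genes rose and 3.28% fell. Among the 4 was Chga, chromogranin A, which rose by 0.33 (adjusted p = 0.00249, limma) and by 0.36 with the style as a block. Chga differed from CON by 0.04. Jchain rose by 0.64 (adjusted p = 0.0181, limma) in the same test and missed the threshold with the style as a block (adjusted p = 0.0715). The B cell and germinal centre list had the lowest median of all lists in this test, -0.51, with 0 of 14 genes past the threshold; the lymphoid level ran from 5.73 to 8.09 in HAMSB arrays and from 5.63 to 8.95 in arrays of the other Western-type diets.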
